A study of Homo sapiens
Mus musculus and Homo sapiens with 21 samples.

Results

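The genes Tbr1, Neurod6, Emx1, Ddn, Drd1, Drd2, Ppp1r1b and Adora2a were followed in the mouse RNA of brain that did or did not carry human lung cancer metastases. They are 8 of 33043 genes in the mouse table, chosen as 4 genes of cerebral cortex and 4 of striatum and matched by symbol. All 8 passed the filter on low values and are among the 15777 genes tested. RNA was sequenced from bulk tissue of athymic nu/nu mice, which lack a thymus and mature T cells. The 4 groups used were tumour-free forebrain (FB, 4 libraries), tumour-free hindbrain (HB, 4), tumour-bearing forebrain (FBMet, 3) and tumour-bearing hindbrain (HBMet, 3), 14 of 21 libraries in all. The tumours grew from H2030-BrM3 cells, a brain-metastatic derivative of the human lung adenocarcinoma line H2030, given by injection into the heart at 5 to 6 weeks of age. The labels put the name of the cell line on the tumour-free brains as well and do not say whether those mice were injected. Tumour was cut out by eye together with the stroma around it, so the amount of normal tissue and its exact position in the brain can differ between libraries. The labels do not say which libraries came from the same animal or whether replicates are separate animals, so p-values measure only the spread between these libraries, which may be technical.

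The cerebral cortex and the hippocampus are built mainly of glutamatergic projection neurons, whose identity is set by transcription factors that include Emx1, Tbr1 and Neurod6. The striatum lies beneath the cortex and consists mostly of GABAergic medium spiny neurons of the direct pathway, which carry the D1 dopamine receptor (Drd1), and of the indirect pathway, which carry the D2 dopamine receptor (Drd2) and an adenosine receptor (Adora2a). Both kinds contain DARPP-32 (Ppp1r1b), an inhibitor of protein phosphatase 1 that acts downstream of dopamine. Ddn encodes dendrin, a protein of dendrites and postsynaptic sites in forebrain neurons. The hindbrain, made up of cerebellum, pons and medulla, holds neither cortex nor striatum.

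Levels are RPKM (reads scaled to transcript length and sequencing depth) rescaled so that every library sums to 1000000 over the mouse genes. A call is an adjusted p under 0.05 by limma. A log2 change is a difference of mean log2(level + 1), and a fold is 2 to that power, which understates the change of low genes. The mouse reads recovered from the deposited values numbered 17747006 to 20432693 in FB, 19337702 to 23034546 in HB, 54449920 to 71915867 in FBMet and 52357282 to 86138243 in HBMet. Genes of other regions were read beside the labels. Of these, 14 of 14 cerebellar and 14 of 14 brainstem genes were called lower in FB than in HB, as were 32.5% of all genes. Their median log2 changes were -3.39 and -2.67, beside -0.09 over all genes tested. The lists were chosen with earlier results of these data known, so they are no independent check of the labels.

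The 4 HB libraries were not alike. HB replicate 1 held almost no RNA of Tbr1, Emx1 and Ddn, at levels close to those of the HBMet libraries, while HB replicates 2, 3 and 4 held several percent of the forebrain level. Its Neurod6 level was the lowest of the HB libraries, but from 88 reads. HB replicate 1 also differed in hindbrain genes: the summed level of the 14 cerebellar genes was 2091 in replicate 1 and 1081, 804 and 1302 in replicates 2 to 4, and that of the 14 brainstem genes was 210 against 328, 310 and 249. This difference touches each comparison with HB, and those results are given with and without HB replicate 1. All 14 libraries share 1 spread in the fit, so it also touches the standard errors and p-values of comparisons without HB.

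Tbr1, a transcription factor of early-born and deep-layer cortical neurons, stood at 122.0, 107.9, 95.1 and 83.8 in FB replicates 1 to 4. In HB it stood at 0.404 in replicate 1 and at 9.88, 13.4 and 6.51 in replicates 2 to 4, from 8, 233, 307 and 143 reads. It was 102, 97.3 and 132 in FBMet and 0.325, 0.601 and 0.311 in HBMet. Both forebrain groups thus lay far above both hindbrain groups and overlapped each other, and only HB replicate 1 lay within the HBMet range.

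Neurod6, a transcription factor of differentiating cortical and hippocampal projection neurons, was measured at 39.6, 36.3, 35.6 and 45.0 in FB. Its HB levels were 2.87, 4.52, 6.36 and 4.29. It was 28.5, 22.01 and 33.2 in FBMet and 2.88, 3.02 and 3.09 in HBMet. All FBMet libraries were below all FB libraries, and HB replicate 1 was the lowest of the HB libraries.

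Emx1, a homeobox gene of the developing and adult dorsal forebrain, was the least abundant of the cortical members, at 12.1, 10.2, 13.7 and 12.9 in FB. HB replicates 1 to 4 held 0.0995, 1.25, 1.72 and 0.806, from 2, 30, 40 and 18 reads. FBMet held 8.10, 7.11 and 10.1, and HBMet 0.0882, 0.108 and 0.107. The FBMet and FB ranges did not overlap, and HB replicate 1 again fell inside the HBMet range.

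Ddn was the most abundant of the cortical members, at 423, 442, 492 and 406 in FB. Its HB levels were 1.59, 35.5, 38.1 and 25.7, with replicate 3 at 23.9 times replicate 1, from 85, 2254, 2357 and 1522 reads. FBMet stood at 405, 476 and 406, and HBMet at 1.90, 1.95 and 2.42. HB replicate 1 was below every HBMet library, and HB replicates 2 to 4 were all above 25.

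Among the striatal genes the HB libraries were much closer to each other. Drd1 was at 27.3, 21.7, 23.7 and 18.8 in FB and at 0.477, 0.667, 0.841 and 0.788 in HB, with 24 to 49 reads per HB library. It reached 30.1, 38.4 and 41.8 in FBMet, all above FB, and 0.621, 0.509 and 0.459 in HBMet. The HB and HBMet ranges overlapped.

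Adora2a, which marks the indirect pathway, was at 37.6, 28.6, 32.0 and 27.9 in FB. Its HB levels of 0.719, 0.743, 0.573 and 0.573 put HB replicate 1 among the higher values. It was 33.5, 47.3 and 49.1 in FBMet and 0.601, 0.867 and 0.494 in HBMet. FBMet replicate 1 lay inside the FB range and the other FBMet libraries above it.

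Drd2, the other receptor of the indirect pathway, was well above 0 in every hindbrain library. Which tissue in those dissections holds it was not tested. It was 29.3, 23.9, 28.01 and 20.8 in FB, against 6.65, 10.7, 9.65 and 9.42 in HB. It was 32.3, 47.0 and 46.8 in FBMet, all above FB, and 8.34, 7.16 and 8.69 in HBMet. HB and HBMet overlapped.

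Ppp1r1b was the most abundant striatal member and likewise well above 0 in the hindbrain. It stood at 504, 425, 562 and 457 in FB and at 119, 86.6, 75.7 and 120.2 in HB. It was 545, 663 and 703 in FBMet and 115, 129 and 99.9 in HBMet. HB replicate 1 was near the top of its group here, the reverse of its place for the cortical genes.

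**Figure D1:**
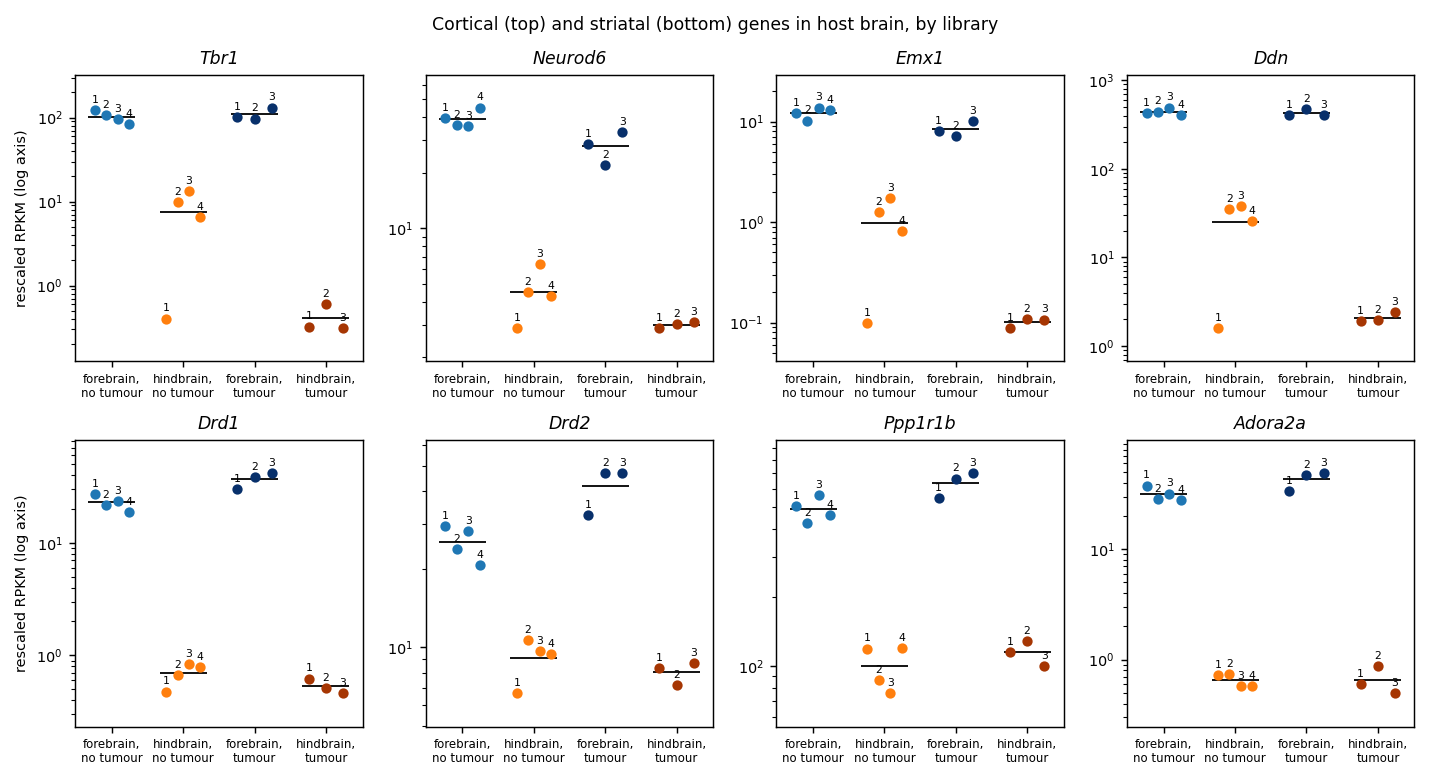
Level of each of the 8 genes in every library (rescaled RPKM, log axis), 1 panel per gene and 1 point per library, grouped as FB, HB, FBMet and HBMet. For Tbr1, Emx1 and Ddn, HB replicate 1 lies with the HBMet libraries and HB replicates 2 to 4 lie above them.

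In tumour-free brain all 8 genes were higher in forebrain than in hindbrain, where 52.8% of all genes tested were called 20.2% higher and 32.5% lower in FB. Among the cortical members, Ddn had a log2 change of 4.64 ± 0.70 (SE, 4 against 4 libraries; 24.8-fold; limma adjusted p = 0.000216) and Tbr1 one of 4.00 ± 0.57 (16.04-fold; adjusted p = 0.000118). Neurod6 was 7.44-fold and Emx1 7.04-fold higher in FB. Among the striatal members, Adora2a was 19.6-fold higher (log2 4.29 ± 0.13; limma adjusted p = 7.28e-12) and Drd1 14.04-fold higher. Ppp1r1b was 4.88-fold and Drd2 2.63-fold higher. The standard errors of Tbr1 and Ddn are more than 4 times those of Drd1 and Adora2a. Without HB replicate 1 all 8 calls held, with log2 changes of 3.28 for Tbr1 and 3.71 for Ddn.

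In tumour-bearing brain the forebrain was again higher for all 8 genes, where 48.4% of all genes were called 17.8% higher and 30.7% lower in FBMet. FBMet and HBMet share no library with FB and HB, although the 4 groups were fitted together. The standard errors below therefore also hold the spread within HB. Ddn was 139.0-fold higher (log2 7.12 ± 0.81 SE, 3 against 3 libraries; limma adjusted p = 2.77e-05) and Tbr1 78.4-fold higher (log2 6.29 ± 0.66; adjusted p = 1.16e-05). Emx1 was 8.50-fold and Neurod6 7.14-fold higher. Adora2a was 26.6-fold, Drd1 24.5-fold, Ppp1r1b 5.52-fold and Drd2 4.69-fold higher. The added 1 lowers these folds strongly for genes near 0 in HBMet. As ratios of mean levels, FBMet over HBMet, Emx1 was at 83.6 and Neurod6 at 9.32. Tbr1 was at 267, Ddn at 205, Drd1 at 69.4 and Adora2a at 66.2. With the replicate number as a block all 8 calls held. Without HB replicate 1 the log2 changes of Ddn and Tbr1 were unchanged, and limma gave adjusted p = 7.17e-14 and 3.97e-11.

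The level of each HB library was also read as a percentage of the FB mean. For Tbr1 it was 0.395% in HB replicate 1 (exact Poisson 95% interval of its reads 0.171 to 0.779%) against 9.66, 13.1 and 6.37% in replicates 2 to 4. For Ddn it was 0.362% against 8.05, 8.66 and 5.83%, and for Emx1 0.814% (0.0986 to 2.94%) against 10.2, 14.1 and 6.60%. Neurod6 was present in every hindbrain library, at 7.34% in replicate 1 and 11.5, 16.3 and 10.97% in the others. In percentage points of the FB mean, replicate 3 exceeded replicate 1 by 12.7 for Tbr1, 13.2 for Emx1, 8.93 for Neurod6 and 8.29 for Ddn.

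Drd1 and Adora2a did not share that step. Adora2a was at 2.28% of the FB mean in HB replicate 1 and at 2.36, 1.82 and 1.82% in the others, and Drd1 at 2.09% and 2.92, 3.68 and 3.44%. In replicate 3 the excess over replicate 1 was 1.59 points for Drd1 and -0.464 points for Adora2a. For Drd2 it was 11.8 points, as large as for the cortical genes, and for Ppp1r1b -8.93 points. As a ratio to replicate 1, replicate 3 was at 1.45 for Drd2, beside 2.22 for Neurod6 and 33.1 for Tbr1. Drd2 was at 26.1% in replicate 1 and 36.9 to 41.9% in the others, while Ppp1r1b was at 24.5% and at 15.5 to 24.7%. The ratio of Tbr1 to Drd1 levels accordingly ran from 0.847 to 15.9 within HB.

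Over the wider lists the order of the HB libraries was mixed. HB replicate 1 was the lowest of the 4 for 16 of 19 cortical projection neuron genes and the highest for 3, and the lowest for 8 of 12 forebrain synapse genes. It was the lowest for 15 of 26 striatal genes and for 3754 of 15758 genes tested (23.8%), and the highest for 13 of 14 cerebellar genes. A low place was not limited to forebrain lists. HB replicate 1 was the lowest for 6 of 8 oligodendrocyte and 11 of 18 pan-neuronal genes, and the highest for 0 and 2 of them. Fezf2, a factor of deep-layer cortical neurons, had 0 reads in HB replicate 1, where 3 reads would be 0.692% of the FB mean, and was at 9.09, 13.3 and 5.61% in replicates 2 to 4. Icam5, an adhesion molecule of telencephalic dendrites, was at 1.43% against 8.81, 8.09 and 7.01%. Other genes did not show this step: Bhlhe22 was at 129.0% against 90.2, 89.99 and 105.8%, and Slc17a7 at 26.8% against 27.6, 22.6 and 24.9%. Bhlhe22 and Slc17a7 stood well above several percent in every HB library, so a step of that size could be masked in them. Striatal Lrrc10b was at 2.18% against 2.44, 1.75 and 4.18%. Intervals and limits cover counting error only.

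A wider set was chosen after the values were seen: the 54 genes with a mean of at least 5 in FBMet and at least 20 times that of HBMet, of which Tbr1, Emx1, Ddn, Drd1 and Adora2a are 5. Their median was 1.61% of the FB mean in HB replicate 1 and 9.51, 10.5 and 6.68% in replicates 2 to 4. Of the 54 genes, 7 exceeded 5% in replicate 1 and 42, 44 and 40 did so in the others. Transcripts of forebrain were thus measured at several percent in 3 HB libraries. Whether forebrain tissue entered those dissections was not tested.

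**Figure D2:**
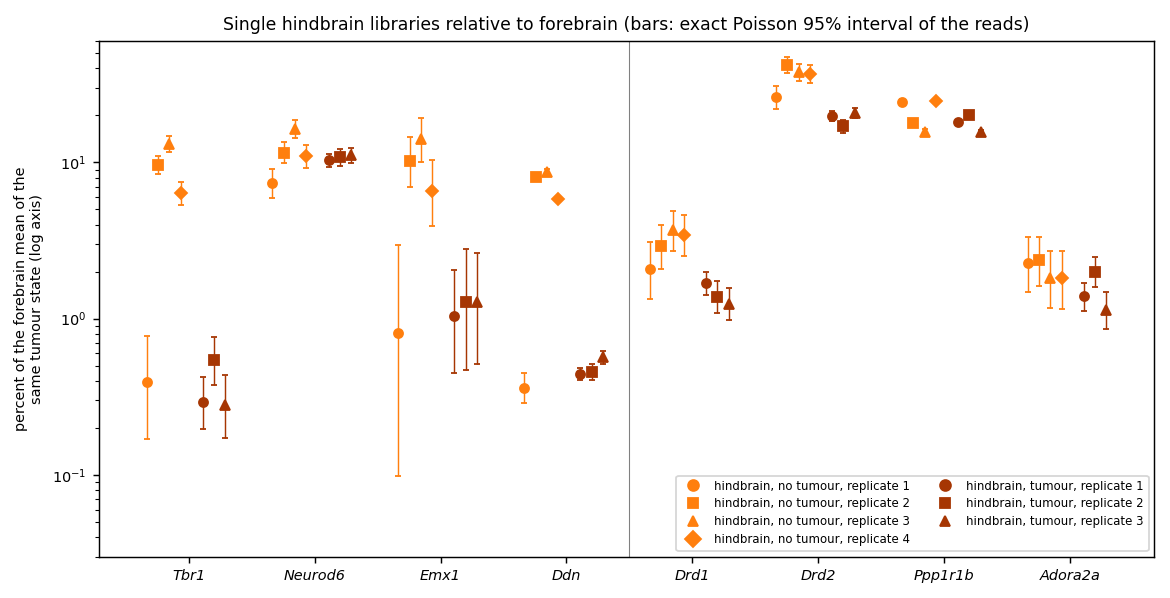
Level in each HB and HBMet library as a percentage of the forebrain mean of the same tumour state (log axis), 1 point per gene and library with the exact Poisson interval of its reads as a bar. The cortical genes Tbr1, Emx1 and Ddn lie under 1% in HB replicate 1 and between 5.83 and 14.1% in HB replicates 2 to 4, and Drd1 and Adora2a lie between 1.82 and 3.68% in all 4.

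The same reading of HBMet against the FBMet mean gave narrow ranges. Tbr1 was at 0.282 to 0.545%, Ddn at 0.444 to 0.565% and Emx1 at 1.05 to 1.27%. Neurod6 was at 10.3 to 11.1%. Drd1 was at 1.25 to 1.69%, Adora2a at 1.14 to 2.00%, Drd2 at 17.0 to 20.7% and Ppp1r1b at 15.7 to 20.2%. For Tbr1, Emx1 and Ddn every HBMet library was below HB replicates 2 to 4 on this scale, whereas for Neurod6 the HBMet range reached past the 10.97% of HB replicate 4. The denominators differ, as mean Neurod6 was 27.9 in FBMet and 39.1 in FB. In levels, Neurod6 was lower in every HBMet library (2.88 to 3.09) than in HB replicates 2 to 4 (4.29 to 6.36).

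Tumour-bearing and tumour-free forebrain were compared next, a question the design text puts as the change of stroma in the tumour-bearing brain. Striatal receptors were higher in FBMet: Drd1 rose 1.58-fold (log2 0.66 ± 0.13 SE, 3 against 4 libraries; limma adjusted p = 0.00250) and Drd2 1.61-fold (log2 0.69 ± 0.16; adjusted p = 0.00621). Adora2a rose 1.35-fold (log2 0.44 ± 0.14; adjusted p = 0.0257), with ranges that overlapped. The cortical factor Neurod6 fell by 0.49 on the log2 scale (SE 0.17; limma adjusted p = 0.0480). These 4 of 8 members were called where 30.4% of all genes were, 14.4% higher and 16.0% lower. Among the members without a call, Ppp1r1b had a log2 change of 0.39 (limma adjusted p = 0.0795), Emx1 -0.49 (0.117), Tbr1 0.11 (0.916) and Ddn -0.04 (0.978). The standard errors were 0.62 for Tbr1 and 0.76 for Ddn, in a fit whose spread is shared with the unlike HB libraries. A change of these genes was therefore harder to call than one of Drd1. In a fit of FB and FBMet alone, 6 of 8 members were called, beside 4302 of 14888 genes tested. In bulk tissue, fewer cells of a type and less RNA per cell cannot be told apart.

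The calls differed in how far they held. Drd1 and Drd2 were called under all 28 alternative settings. The Neurod6 call was lost in 19 of 28 (adjusted p 0.0139 to 0.273) and that of Adora2a in 7 of 28 (0.00278 to 0.127). The replicate block, 1 of these settings, lost both calls (limma adjusted p = 0.0786 and 0.0723) and left 2 members called, Drd1 and Drd2. For this comparison it pairs FBMet and FB libraries by number, a pairing that the labels do not state. Leaving out FB replicate 2, FB replicate 4 or FBMet replicate 2 also left 2 members called, and without FBMet replicate 2 the count over all genes went from 4793 to 2353. Emx1 was called without HB replicate 1 (adjusted p = 0.0209, range over settings 0.0164 to 0.482).

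Ratios within a library do not depend on its scaling. Drd1 over Emx1 was 1.46 to 2.26 in FB and 3.72 to 5.39 in FBMet, and Drd1 over Tbr1 was 0.201 to 0.249 and 0.296 to 0.394. Adora2a over Neurod6 was 0.619 to 0.951 in FB and 1.18 to 2.15 in FBMet. Of the 16 ratios of a striatal over a cortical member, all FBMet libraries lay above all FB libraries for 13. These 13 include every ratio over Neurod6 or Emx1, genes whose own levels were lower in all FBMet than in all FB libraries. The 16 ratios share genes, so they do not count as independent results. Between FBMet and FB, 30.4% of all single genes tested were called. How often other gene pairs separate FBMet from FB in this way was not tested. The 13 of 16 can therefore not be read as particular to these genes. The ranges overlapped for Ppp1r1b over Tbr1, Adora2a over Tbr1 and Adora2a over Ddn. Within the striatal genes, Drd1 over Drd2 was 0.845 to 0.931 in FB and 0.816 to 0.934 in FBMet, and Adora2a over Drd2 was 1.14 to 1.34 and 1.01 to 1.05.

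**Figure D3:**
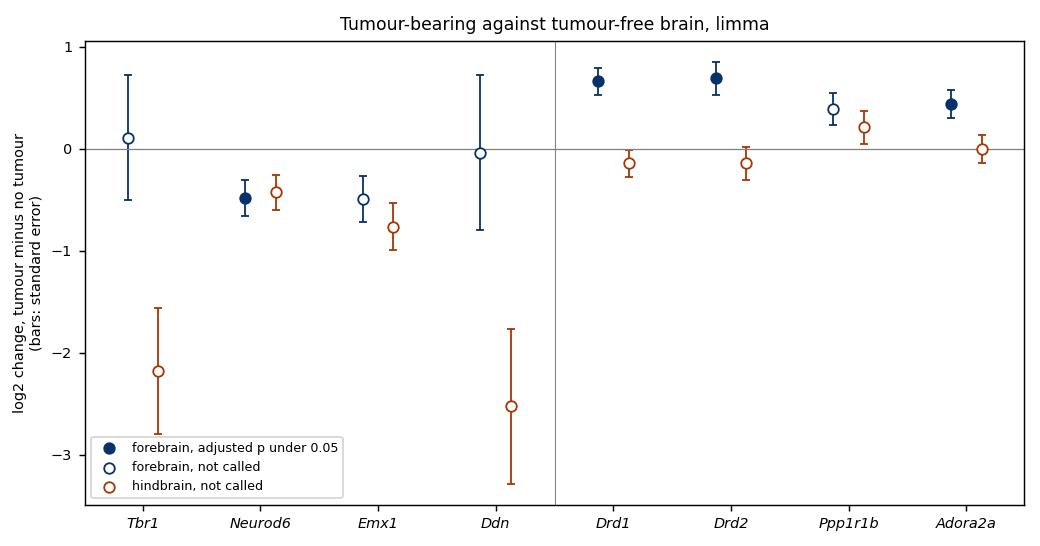
log2 change (tumour-bearing minus tumour-free) of the 8 genes in forebrain and in hindbrain, points with standard errors from limma and filled where called. Drd1 and Drd2 lie at 0.66 and 0.69 in forebrain, and in hindbrain Tbr1 and Ddn lie at -2.18 and -2.52 with the widest standard errors.

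The wider lists are given by their counts, beside the 14.4% of all genes called higher and 16.0% called lower. No difference between lists was tested. Of 26 striatal projection neuron genes, 14 rose in FBMet and none fell, with a median log2 change of 0.38 beside -0.03 over all genes tested. The called genes with the largest changes were the phosphodiesterase Pde10a (0.81, ranges overlapping), the G protein regulator Rgs9 (0.60), the adenylyl cyclase Adcy5 (0.57) and Rasd2 (0.55). The Rgs9 call was lost in 1 of 28 settings, without FBMet replicate 2 (adjusted p 0.0608, range over settings 0.000532 to 0.0608). Of 20 genes of dopamine and DARPP-32 signalling, 6 rose and 5 fell (median -0.12), and the D3 receptor Drd3 rose by 0.65 from low levels of 0.559 ± 0.123 in FB to 1.503 ± 0.694 in FBMet (SD, n = 4 and 3). This list shares Adcy5, Gnal, Gng7, Pde1b, Pde10a, Ptpn5 and Rgs9 with the striatal one.

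Few cortical genes outside the members were called in the fit over all 14 libraries, whose spread includes the difference between HB libraries. Of 19 cortical projection neuron genes, Syt6 rose by 0.51 and Bhlhe22 fell by 0.82, the other 17 were not called, and the median was -0.10. The Syt6 call was lost in 2 of 28 settings, without FBMet replicate 2 or 3 (adjusted p over settings 0.000458 to 0.0582). Of 12 forebrain synapse genes, 2 fell and none rose (median 0.06). Cnih2, an auxiliary subunit of AMPA receptors, fell by 0.40 and Slc17a7, a vesicular glutamate transporter, by 0.35. Those 2 calls were lost in 10 and 7 of 28 settings (adjusted p 0.0111 to 0.440 and 0.00464 to 0.608).

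Genes of neighbouring regions were lower in FBMet. Of 8 hippocampal genes tested, 6 fell and none rose (median -0.66), among them C1ql2 by 1.17, Fibcd1 by 1.12, Spink8 by 1.06 and Lct by 0.76. The Lct call was lost in 1 of 24 settings, without FBMet replicate 2 (adjusted p 0.0859, range over settings 0.000575 to 0.0859). Of 12 thalamic and midbrain genes, 10 fell and none rose (median -1.23), among them the dopamine transporter Slc6a3 by 2.28, Gata3 by 1.98, the glutamate transporter Slc17a6 by 1.81 and Tcf7l2 by 1.46. The Slc6a3 call was lost in 14 of 28 settings (adjusted p 0.000166 to 0.114). Of 8 hypothalamic genes, 6 fell and none rose (median -1.58). Pmch, which encodes melanin-concentrating hormone, went from 64.8 ± 9.19 to 0.444 ± 0.236, and Avp, vasopressin, from 49.2 ± 19.98 to 3.62 ± 2.67 (SD, n = 4 and 3). Hcrt, orexin, was at 13.7 ± 1.93 in FB and listed at 0 in all 3 FBMet libraries.

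General neuronal and non-neuronal markers also moved with tumour state. Of 18 pan-neuronal genes, 9 fell and 1 rose (median -0.27), and their summed level was 15546 to 16157 in FB and 12368 to 14631 in FBMet. All 8 microglia and macrophage genes rose (median 1.24; C1qa by 1.64), with sums of 157 to 172 in FB and 351 to 451 in FBMet. Of 8 astrocyte genes 6 rose (Gfap by 2.28), and of 6 endothelial genes 4 rose. No microglial, astrocyte or endothelial marker was at 0 in any library of either group. The part of these shifts, or of where the tissue was cut, in the changes of the 8 genes was not tested.

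**Figure D4:**
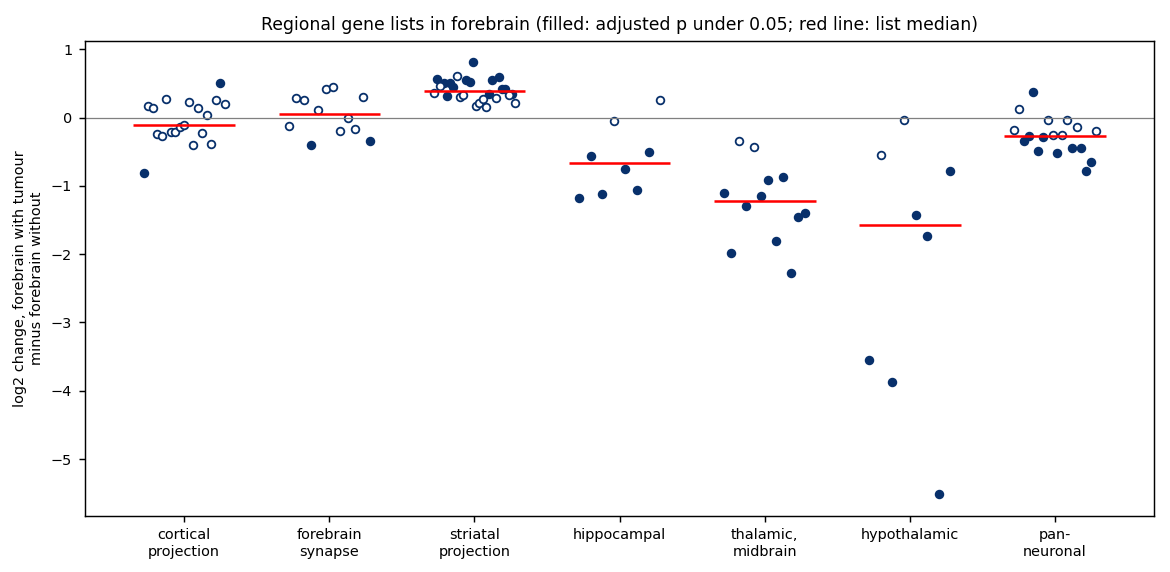
log2 change, FBMet minus FB, of each tested gene in the lists of regional and cell type markers (1 point per gene, filled where called) with each list's median as a red line. Striatal genes lie mostly above 0 (median 0.38), and hippocampal, thalamic and midbrain, and hypothalamic genes mostly below (medians -0.66, -1.23 and -1.58).

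In the hindbrain, 0 of 8 members were called between tumour-bearing and tumour-free tissue by limma, where 3.25% of all genes were, 2.92% higher and 0.33% lower. At an unadjusted p under 0.05 there were 4 of 8, and limma's voom on the recovered reads also called 0. The fitted log2 changes of the cortical members were -2.52 ± 0.76 for Ddn (SE; adjusted p = 0.133), -2.18 ± 0.62 for Tbr1 (0.104), -0.76 ± 0.23 for Emx1 (0.105) and -0.43 ± 0.17 for Neurod6 (0.261). Those of the striatal members were close to 0, at -0.14 for Drd1 and Drd2, 0.21 for Ppp1r1b and -0.00 for Adora2a.

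HB replicate 1 decided the cortical values. Without it, limma called 4 members lower in HBMet: Ddn at -3.45 (adjusted p = 4.11e-09), Tbr1 at -2.91 (4.52e-06), Emx1 at -1.02 (0.00114) and Neurod6 at -0.58 (0.0346). Leaving out any other single library gave 0 calls. HB replicate 1 itself, at 0.404 for Tbr1, 0.0995 for Emx1 and 1.59 for Ddn, was within or below the HBMet range.

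Of the wider lists in hindbrain, none of 19 cortical and none of 26 striatal genes was called in the fit with HB replicate 1. That fit called 2.92% of all genes higher and 0.33% lower. The median log2 changes of these lists were -0.34 and -0.16. Their counts without HB replicate 1 are not given here, so a change of the cortical list is not excluded. The synapse gene Kalrn, a guanine nucleotide exchange factor of dendritic spines, fell by 0.88 with overlapping ranges, a call lost in 13 of 28 settings (adjusted p 2.89e-05 to 0.222). Cdk5r1, the activator of the kinase Cdk5, fell by 0.30 and was lost in 7 of 28 (0.00694 to 0.284). Tdo2, from the hippocampal list, rose by 0.67 and was lost in 5 of 27 (0.00554 to 0.121). Of 8 microglia and macrophage genes 7 rose (C1qa by 1.76), and of 8 astrocyte genes 2 rose (Gfap by 1.41). The cerebellar sum was 1394 to 2034 in HBMet, so that HB replicates 2 to 4 lay below and HB replicate 1 above all HBMet libraries. The brainstem sum was 189 to 254 in HBMet.

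The change with tumour in forebrain was then set against that in hindbrain in 1 interaction term. By limma 0 of 8 members were called, where 0.456% of all genes were (0.254% higher and 0.203% lower). In that fit 5 of 8 had an unadjusted p under 0.05, and voom called 0 as well. The differences were 0.80 for Drd1 (adjusted p = 0.0675), 0.83 for Drd2 (0.0915), 2.29 for Tbr1 (0.189) and 2.48 for Ddn (0.237). Without FB replicate 1 there was 1 call, and without HB replicate 1 there were 4, Tbr1 (3.02), Ddn (3.41), Drd1 (0.87) and Drd2 (0.96). With all 14 libraries, Drd1 was called under 3 other settings, quantile normalization (adjusted p = 0.0426), scaling to pan-neuronal genes (0.0493) and library weights (0.0309), within a range of 0.0151 to 0.215 over its 27 alternatives.

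Outside the brain the 8 genes were nearly silent in host RNA. In 4 subcutaneous tumours, Tbr1, Neurod6 and Emx1 had 0 reads among 2446107 to 3968585 mouse reads per library, so up to 3 reads per library remain possible. Adora2a was the exception, with 17 to 23 reads and a level of 2.50 ± 0.484 (SD, n = 4), above the 0.652 ± 0.0917 of HB.

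The genes whose profile over the 14 libraries was most like the mean cortical pattern were Gm11549, the muscarinic receptor Chrm1, the potassium channel Kcnj4, Icam5 and the syntaxin Stx1a, with Pearson r of 0.997 to 0.998. Those most like the striatal pattern were Sh3rf2, Rgs9, Gpr6, Gng7 and Cd4, with r of 0.995 to 0.998. The libraries fall into forebrain and hindbrain, which any regional gene shares, so these values describe the 14 libraries only.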

How the data were processed

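The authors deposited mouse RPKM values for 21 libraries. Reads were mapped to mm10 (GRCm38), per the submitters' processing notes, whereas aligner and counter: not given in the sources used here. Total RNA was used, per the labels. Values were rescaled to a sum of 1000000 per library. Log2(value + 1) was fitted with limma 3.58.1 in R 4.3.3 (trend, robust) over the 14 brain libraries, without a block, for genes of at least 1 in at least 3 libraries. P-values are two-sided, Benjamini-Hochberg adjusted over 15777 genes in each of 5 comparisons. FB and FBMet, and HB and HBMet, are each shared between comparisons.

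Whole reads were recovered from the steps of the RPKM values: within 0.02, 100% of 32021 genes gave whole numbers. They give the depths, the intervals and the alternative with voom. Fits were tested on simulated data. No 2 replicates were alike within counting noise: over 18 pairs, chi-square divided by its degrees of freedom was 10.1 to 60.3. FBMet and HBMet residuals correlated at 0.24 to 0.44 for the same replicate number and at most -0.04 for other numbers. Residuals were centred within each group, so positive values for the same number bring negative ones for the others. The negative values are thus no separate evidence of pairing. FB and HB showed no such gap (-0.06 to 0.37 for the same number, -0.28 to 0.28 for others). Neither did FBMet and FB (-0.17 to 0.06, and -0.13 to 0.13) nor HBMet and HB (-0.20 to 0.04, and -0.13 to 0.30). The numbers were taken as pairs only in the alternative with a block, and the main fit has none.

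The members and 17 further gene lists were chosen with earlier results of these data known. The naming rule took all 8 members, up to 4 called genes of largest change per list and comparison, and the 5 genes most like each pattern. It names 98 genes beside the members. Counts of alternatives and flags cover all 98. The examples printed were picked from them with values known. A few genes that the rule names are not reported here. No genome, promoter or protein reference for the mouse was used here, so no positions or sequences are given.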

Additional observations from a re-analysis of the deposited data

Results flagged for a closer look

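For 8 of the 98 further genes named by the rule, the change with tumour differed between forebrain and hindbrain by limma's interaction term, as log2 forebrain minus hindbrain. Adcy5 differed by 0.80, with a rise in forebrain. The other 7 were negative: Pmch -5.24, Hcrt -3.93, Avp -3.59, Slc17a6 -1.63, Tdo2 -1.18, Bhlhe22 -1.01 and Stmn2 -0.51. Hcrt was listed at 0 in all FBMet libraries, so its fitted value depends on the pseudocount of 1. Calls were lost in 14 of 27 alternatives for Stmn2 (adjusted p 0.00888 to 0.179), in 12 of 27 for Adcy5 (0.0117 to 0.176), in 12 of 26 for Tdo2 (0.00619 to 0.125), in 9 of 27 for Bhlhe22 (0.00235 to 0.0973), in 6 of 27 for Avp (0.00623 to 0.151) and in 2 of 27 for Slc17a6 (0.00191 to 0.0868).

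Members also had mouse-assigned reads outside the brain, above the 3 reads that a count of 0 allows. The highest number in 1 subcutaneous tumour library was 23 for Adora2a, 11 for Ddn and 4 for Ppp1r1b. In the monolayer of human cells, which holds no mouse tissue, 1 library had 12 reads of Ddn and 9 of Ppp1r1b. Drd2 was at 0.186 in 1 subcutaneous library, from 1 read, and at 0 in the other 3, a gap that set this library apart. The rule for gaps is always met when 1 library has a read and the other 3 have 0, so this flag carries no information.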

How the results depend on the processing

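Of 1109 alternative values for the members, 1028 kept direction and side of the threshold, 26 lost a call, 32 gained one and 23 changed sign. Of 5067 for the 98 further genes, 4834 kept both and 233 lost the call. All 8 members stayed called between forebrain and hindbrain, with and without tumour, in every fit that left out 1 library. For FBMet against FB, 2 members instead of 4 were called with a pseudocount of 0.1, with no filter, and with the replicate block that pairs libraries by number, and 2 to 5 with 1 library left out (2353 to 4996 genes, against 4793, and 5094 without FB and HB replicates 1 together). With only FB and FBMet fitted, 6 members and 4302 of 14888 genes tested were called. For HBMet against HB, genes called were 512, and 294 with a minimum of 5, 824 with library weights, 853 without FB and HB replicates 1 together, and 291 to 804 with 1 library left out. Members called there were 0, and 1 with quantile normalization, 3 with library weights, 4 without both replicates 1, and 0 to 4 with 1 library left out. For the interaction, genes called were 72, and 129 with quantile normalization, 33 scaled to pan-neuronal genes, 30 with no filter, 660 with library weights, 174 with voom, 631 without both replicates 1 and 12 to 343 with 1 library left out. Members called were 0, and 1 with quantile normalization, pan-neuronal scaling or library weights, 4 without both replicates 1, and 0 to 4 with 1 library left out.

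Sign changes touched only values near 0. Ddn, FBMet against FB, was at 0.0332 with quantile normalization, 0.217 with pan-neuronal scaling, 0.0395 with the block and -0.117 to 0.0141 with 1 library left out, and Tbr1 at -0.0259 to 0.197 with 1 library left out. For HBMet against HB, Drd2 was at 0.0268 with pan-neuronal scaling. Adora2a was there at 0.000263 scaled to nuclear genes, 0.00739 as deposited, 0.0790 with pan-neuronal scaling, 0.0165 without both replicates 1 and -0.0940 to 0.0671 with 1 library left out. The interaction of Neurod6 was 0.0322 with quantile normalization, 0.0450 with pan-neuronal scaling, 0.0218 with a pseudocount of 0.1, 0.0292 with voom, 0.106 without both replicates 1 and -0.211 to 0.0987 with 1 library left out. As a median percentage of forebrain, pan-neuronal scaling gave 1.13% for the cortical members in HBMet replicate 2, and for the striatal members 16.8% in HB replicate 1, 16.3% in HB replicate 4 and 11.7% in HBMet replicate 2. Median-of-ratios scaling gave 9.09% for the striatal members in HBMet replicate 1. The cause of these shifts was not tested. The block changed no call of a member other than Neurod6 and Adora2a. Emx1, Drd1 and Adora2a rest on fewer than 50 reads in each HB library, which limits their precision.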
